A study of Mus musculus with 6 samples.

Results

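The comparison is between 1 array of wild type (WT) Th2 cells and 1 array of WT unpolarized T helper cells, which are 2 of the 6 arrays of the series. Both arrays were chosen by their labels. They were read for 11572 genes whose signal was high enough on at least 1 array, out of 18193 named genes. The cells were naive CD4 T cells from spleens of C57BL/6 mice. All cultures were activated for 2 days on plates coated with anti-TCRβ (10 µg/ml), with anti-CD28 at 1 µg/ml and IL-2 at 15 ng/ml, and were then kept for 3 more days in the same medium without the antibodies to TCRβ and CD28, 5 days in all. The WT Th2 culture also held 10 ng/ml IL-4 and an antibody that blocks IFN-γ. The WT unpolarized culture held antibodies that block IL-4 and IFN-γ. The pair therefore differs by IL-4 added against IL-4 blocked, and IFN-γ was blocked on both sides. An Ezh2 KO Th2 and an Ezh2 KO unpolarized array, grown in the same media, give the same difference in cells labelled as knockout for Ezh2, the histone methyltransferase of Polycomb repressive complex PRC2. The WT Th1 and Ezh2 KO Th1 arrays (1 ng/ml IL-12 and an antibody to IL-4) are given beside single genes. The labels name neither the deleted part of Ezh2, nor a Cre driver, nor whether the cultures came from separate mice.

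Each group has 1 array, so no difference within the pair has a replicate or a test. Values are the authors' scaled linear intensities, and differences are on the log2 scale after raising values to a floor of 11.3. The only tested quantity is Th2 minus unpolarized over both genotypes, fitted with limma with genotype as a second term. It borrows the Ezh2 KO pair and estimates a common Th2 difference, taken to be the same in both genotypes. It does not test whether each genotype shows that difference. Array medians ran from 61.3 to 69.1, and log2 values of the WT Th2 and WT unpolarized arrays correlated at r = 0.97 over genes. None of the 9 measured CD4 T cell markers differed by 2-fold or more in the pair. Cd3d, a chain of the T cell receptor complex, had an intensity of 23525 in WT Th2, against 20670.3 in WT unpolarized, and Cd4 had 548 in WT Th2, against 496 in WT unpolarized. Ezh2 itself read 7677 in WT Th2, against 7002 in WT unpolarized, and 4946 in KO Th2, against 4971 in KO unpolarized. Its signal remained on the KO arrays, and a probe outside the deleted part would check nothing, so the KO label rests on the submitters.

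IL-4 binds a receptor made of the IL-4Rα chain (Il4ra) and the common gamma chain, which activates the kinases Jak1 and Jak3 and the transcription factor STAT6. STAT6 raises GATA3, the factor that opens the locus of Il4, Il5 and Il13 and opposes the Th1 program led by T-bet (Tbx21). Th2 cells are known for helping B cells switch to IgE and for recruiting eosinophils. STAT6 binds palindromes in which TTC and GAA are separated by 4 bases, whereas other STAT proteins prefer 3.

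Promoters that hold such a palindrome show where this motif lies near genes with a higher value in WT Th2. The RefSeq promoter windows of assembly GRCm38.p6, running from 250 bases before to 50 after the start site, were searched for TTC and GAA with any 4 bases between them, and with any 3 bases between them. Both patterns read the same on both strands, and a given TTC and GAA can match only 1 of them. Il4 and Drd4 are shown because they were the genes among the fixed set and the highest differences that had the 4-base spacing. Cyp11a1 (4-base spacing) and Il7r (3-base spacing) were picked after their values were seen, as genes that were higher in Th2 in both genotypes. The matched bases are in capitals.

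Il4 (chr11:53618616-53618915, minus strand): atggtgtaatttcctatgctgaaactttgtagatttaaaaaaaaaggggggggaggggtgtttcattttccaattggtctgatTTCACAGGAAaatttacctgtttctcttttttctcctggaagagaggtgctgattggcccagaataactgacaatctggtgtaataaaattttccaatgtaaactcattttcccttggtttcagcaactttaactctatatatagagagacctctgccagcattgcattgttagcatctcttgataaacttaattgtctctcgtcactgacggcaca

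Drd4 (chr7:141291768-141292067, plus strand): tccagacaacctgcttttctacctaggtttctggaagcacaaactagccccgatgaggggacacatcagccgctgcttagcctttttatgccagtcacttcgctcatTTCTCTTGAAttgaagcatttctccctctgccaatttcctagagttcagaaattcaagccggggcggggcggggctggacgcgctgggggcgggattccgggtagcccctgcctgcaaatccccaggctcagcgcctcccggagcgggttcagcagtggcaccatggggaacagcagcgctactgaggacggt

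Cyp11a1 (chr9:58014702-58015001, plus strand): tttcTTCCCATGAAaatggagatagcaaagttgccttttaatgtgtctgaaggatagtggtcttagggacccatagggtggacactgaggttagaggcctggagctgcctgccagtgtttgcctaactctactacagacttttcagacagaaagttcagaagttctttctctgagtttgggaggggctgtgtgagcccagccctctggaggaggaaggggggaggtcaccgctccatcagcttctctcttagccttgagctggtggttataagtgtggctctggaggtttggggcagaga

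Il7r (chr15:9529827-9530126, minus strand): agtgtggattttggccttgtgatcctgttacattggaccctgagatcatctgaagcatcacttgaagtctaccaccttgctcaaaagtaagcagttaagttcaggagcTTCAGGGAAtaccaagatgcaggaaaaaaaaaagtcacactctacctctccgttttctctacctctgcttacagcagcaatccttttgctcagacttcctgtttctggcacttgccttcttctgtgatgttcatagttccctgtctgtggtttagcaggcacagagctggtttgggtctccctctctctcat

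The matches begin 167 bases before the start site of Il4, 143 before that of Drd4, 246 before that of Cyp11a1 and 142 before that of Il7r. For Il4 the match is in 1 of its 2 promoter entries. The 4-base spacing was present in 5 of 45 promoters (11.1%) of the genes 2-fold or more higher in WT Th2 whose mean over the 6 arrays was above 131, called well measured below (36 of 49 genes matched the table). It was in 1 of 31 (3.23%) of the well-measured lower genes, in 5.41% of the promoters of all tested genes, and in 6.95% of all 32851 promoters. For the 3-base spacing the shares were, in the same order, 17.8%, 12.9%, 6.81% and 8.3%. Over all 307 higher genes, dim ones included, the 4-base spacing was in 10.0% of promoters and the 3-base spacing in 7.12%, the second near the share in all tested genes. These shares describe letters in a window, rest on few promoters and were not tested. Il10, Il24, Maf, Cd24a, Penk and Marcks are not in the table.

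Across all tested genes, 307 were 2-fold or more higher in WT Th2 (2.65% of 11572) and 403 were 2-fold or more lower (3.48%). Most of these genes were dim. Among the 307 higher genes, 253 had a WT unpolarized value under 64.4, the median of all values, and 265 had a WT Th2 value under 200. Of the 403 lower genes, 356 had a WT Th2 value under 64.4. The spread of the difference was smaller at high signal. Its SD over genes was 1.19 for the 1463 genes with a mean intensity under 64, and 0.13 for the 1159 genes above 4096, none of which differed by 2-fold. The text therefore reads most closely the 8893 genes whose mean over the 6 arrays was above 131, the 60th percentile of all values. This limit was chosen as the place to name genes after the values were seen. Of these well-measured genes, 49 were 2-fold or more higher in WT Th2 (0.551%) and 39 were lower (0.439%). The mean over 6 arrays does not make every value of the pair bright: 10 of the 49 had a WT unpolarized value under 64.4, and 9 of the 39 had a WT Th2 value under it. Among the 2679 dimmer genes, 9.63% were higher and 13.6% lower. Another scaling moves the balance: after median centring, which shifts the median difference of all genes to 0.13, against 0.003 as deposited, 377 were higher and 316 lower, and after quantile normalization 364 and 324.

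**Figure D1:**
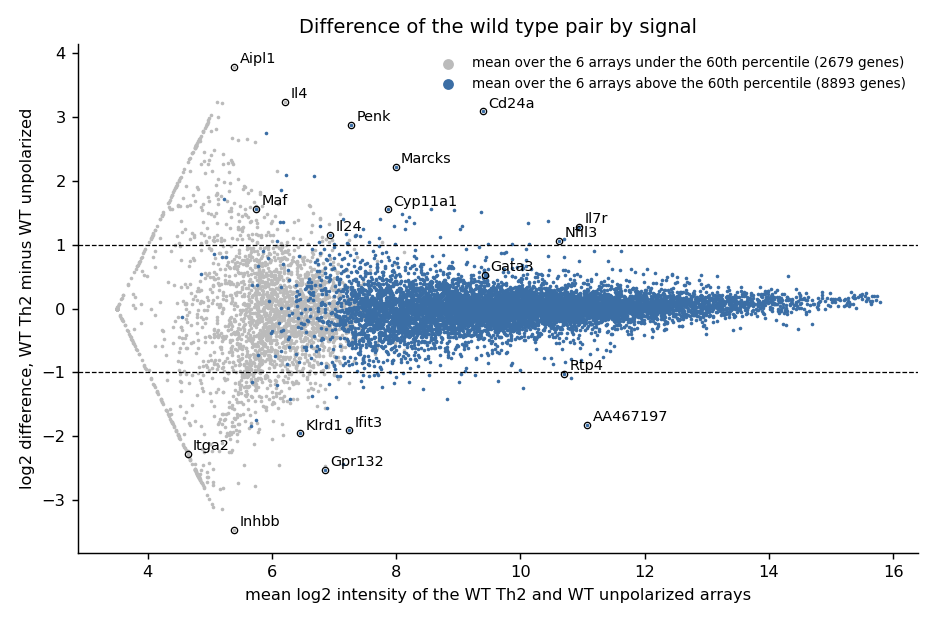
The log2 difference, WT Th2 minus WT unpolarized, is plotted against the mean log2 intensity of both arrays for 11572 genes. Dashed lines mark 2-fold. The points fan out at low signal, where the straight edges are genes whose lower array was raised to the floor. Cd24a, Penk, Marcks and Il7r stand above the spread of genes of like signal, and AA467197 and Gpr132 below it.

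The Ezh2 KO pair, which shares no array with the WT pair, gives the same difference a second time. Of the 49 well-measured higher genes, 39 (79.6%) were also above 0 in the Ezh2 KO pair, where 45.2% of all well-measured genes were. Of the 39 well-measured lower genes, 23 (59.0%) were below 0 there, against 54.8% of all. Only 10 of the 49 (20.4% of the WT list, 13.2% of the KO list) were 2-fold higher in both: Cd24a, Penk, Marcks, Cyp11a1, Ltb4r1, Mgll, Phlda1, Il7r, Il24 and St8sia6. A single gene, A930006K02Rik, was 2-fold lower in both (2.56% and 2.86% of the lists), though not on its other well-measured probe set. The KO pair itself had 4.29% of all tested genes 2-fold higher and 2.21% lower, and 0.855% and 0.394% of the well-measured genes. Over all 307 higher genes, 194 (63.2%) kept their sign in the KO, where 47.8% of all genes were above 0, and over the 403 lower genes 162 (40.2%), where 51.9% of all genes were below 0. Most of these were dimmer genes, whose own shares lay closer together. Of the 258 dimmer higher genes 60.1% kept their sign, where 56.3% of all dimmer genes were above 0. Of the 364 dimmer lower genes 38.2% did, where 42.3% of all dimmer genes were below 0. The correlation of WT and KO differences over genes was 0.21 for the 8893 well-measured genes and 0.04 for the dimmer ones. That describes genes of 4 arrays, not replicates.

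Over both genotypes, limma called 0 genes (0.0%) with an adjusted p under 0.05, and the smallest adjusted p was 0.453. At an unadjusted p under 0.05 there were 775 genes (6.7%), 395 higher (3.41%) and 380 lower (3.28%). With a trend of the variance on signal, an alternative fit, limma called 5 genes (0.0432%), all higher in Th2: Cd24a, Penk, Il7r, Tent5a and Phlda1. The fit leaves 2 residual degrees of freedom. On simulated data of the same size it found none of 200 genes shifted by log2 1 and 63% of those shifted by log2 2.

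**Figure D2:**
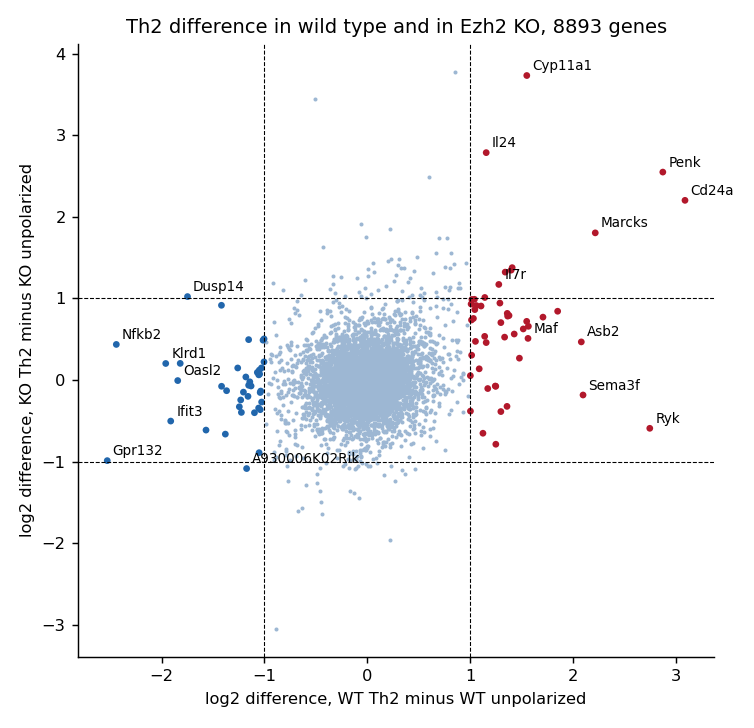
The log2 difference of Th2 minus unpolarized in wild type (horizontal) and in Ezh2 KO (vertical) for the 8893 well-measured genes. Red points are the genes 2-fold or more higher in WT Th2, blue points those lower, and dashed lines mark 2-fold. Cd24a, Penk, Marcks, Cyp11a1 and Il24 lie in the upper right corner, while most blue points lie near 0 on the vertical axis.

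Of the 5 genes called with the variance trend, Cd24a had the largest WT difference. Cd24a encodes a small glycoprotein of the cell surface that marks immature and activated lymphocytes. Its intensity was 1976 in WT Th2, against 232 in WT unpolarized, 364 in KO Th2, against 79.1 in KO unpolarized, and 305 in WT Th1 and 62.1 in KO Th1. WT Th2 is the highest of the 6 arrays, and each Th2 array exceeds the unpolarized and Th1 arrays of its genotype. The WT difference was 3.09 (8.53-fold) and the KO difference 2.20, and the fit gave 2.65 ± 0.24 (SE) with a limma adjusted p of 0.018 with the trend and 0.491 without it. All 3 of its probe sets showed the difference.

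Penk encodes proenkephalin, the precursor of opioid peptides. It read 421 in WT Th2, against 57.3 in WT unpolarized, 1096 in KO Th2, against 187 in KO unpolarized, and 61.2 in WT Th1 and 125 in KO Th1, so that the 2 Th2 arrays are the highest of the 6. The log2 differences were 2.88 in WT and 2.55 in KO (limma with the trend 2.71 ± 0.24, adjusted p 0.018; 0.491 without it). Il7r encodes the IL-7 receptor alpha chain, which sustains naive and memory T cells. It read 3070.2 in WT Th2, against 1264 in WT unpolarized, 6255 in KO Th2, against 2776 in KO unpolarized, and 1611 in WT Th1 and 2785 in KO Th1. The differences were 1.28 and 1.17 (adjusted p 0.018 in limma with the trend, 0.491 without). The KO unpolarized and KO Th1 arrays were nearly as high as WT Th2.

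Phlda1, a pleckstrin-homology-like protein induced by T cell receptor signals, read 500.2 in WT Th2, against 197 in WT unpolarized, and 1249.9 in KO Th2, against 499.6 in KO unpolarized, with differences of 1.34 and 1.32 (limma with the trend, adjusted p 0.0357; 0.491 without). Its KO Th1 array, at 608, exceeded KO unpolarized, and WT Th1 had 288. Tent5a, a poly(A) polymerase, read 3159 in WT Th2, against 1698 in WT unpolarized, 2644 in KO Th2, against 1155 in KO unpolarized, and 1164 in WT Th1 and 847 in KO Th1. Both Th2 arrays are higher than the other 4, by 0.90 in WT and 1.19 in KO (limma with the trend, adjusted p 0.0348; 0.491 without).

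**Figure D3:**
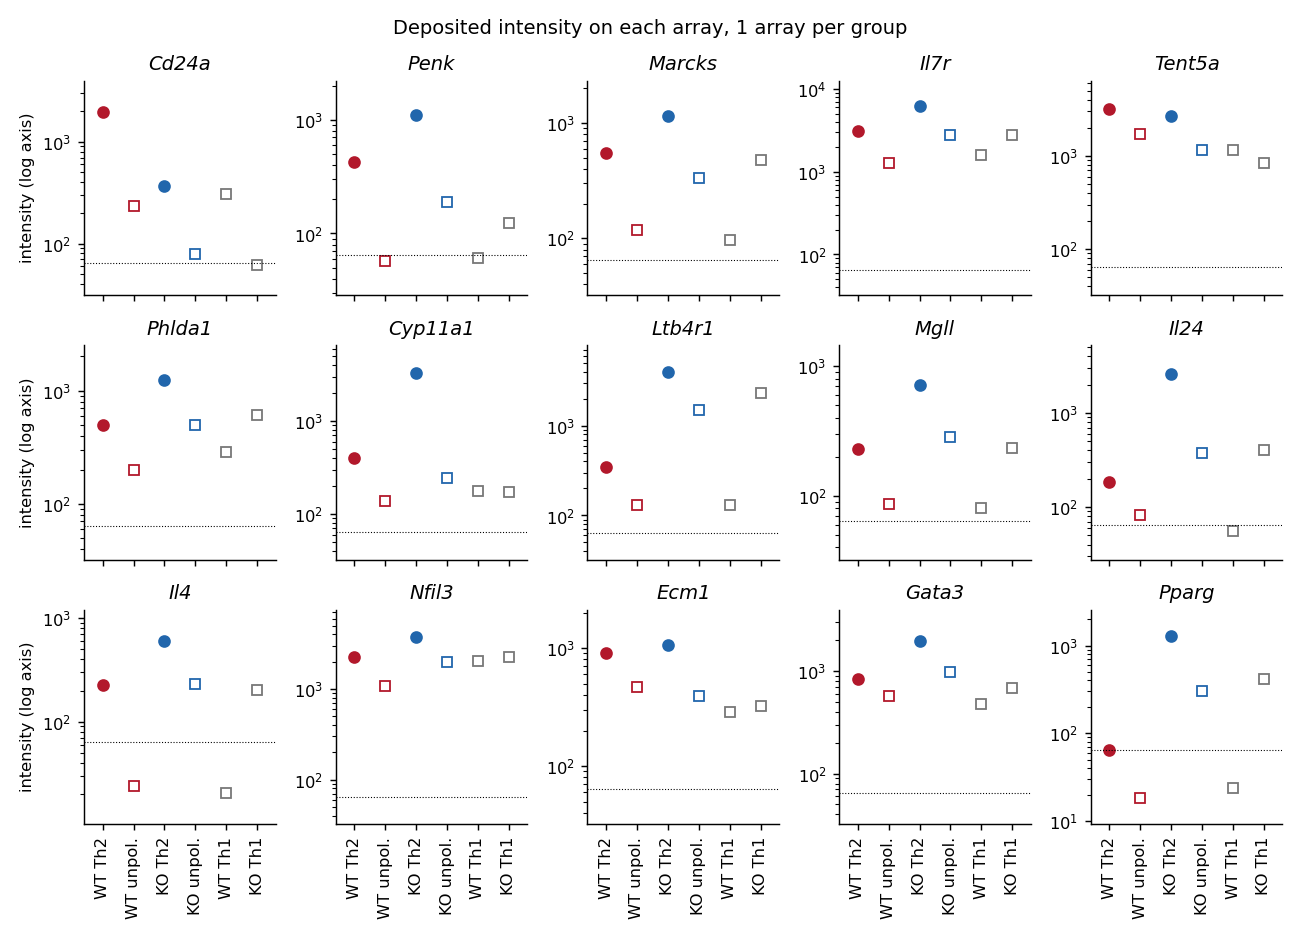
Deposited intensity of 15 genes on each of the 6 arrays, on log axes. Filled circles are Th2 arrays and open squares unpolarized and Th1 arrays, red for wild type, blue for Ezh2 KO and grey for Th1. The dotted line is the median of all values. For each of the 15 genes both Th2 arrays exceed the unpolarized array of their genotype. Ltb4r1, Mgll, Il24, Il4, Gata3 and Pparg read higher in KO unpolarized than in WT Th2, Il4 only slightly.

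Cytokines of the Th2 list were the next group. Of 12 genes, 11 had a probe set and 7 passed the filter on low values, 4 of them only through the Ezh2 KO or Th1 arrays, since both WT arrays of the pair were under 64.4. In the WT pair 3 were 2-fold or more higher (Il4, Il5, Il24) and 0 lower, beside 2.65% and 3.48% of all tested genes. Il5 is among the genes kept only through arrays outside the pair. The median difference was 0.85, against 0.003 of all tested genes, and in the KO pair 2.79. The WT median is the value of Il10, itself under 64.4 on both WT arrays. Because 4 members were kept for their KO or Th1 signal, neither the count nor either median is read as a difference of the whole list. The WT median was 0 when the floor was set at the 40th percentile.

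Il4, the cytokine that starts and maintains the fate, read 227 in WT Th2, against 24.1 in WT unpolarized, 601 in KO Th2, against 229.7 in KO unpolarized, and 20.5 in WT Th1 and 204 in KO Th1. Its WT difference of 3.24 (9.46-fold) came second among the 12 highest named differences, from a WT unpolarized value under the median of all values, and its limma adjusted p was 0.664. The KO unpolarized array was about as high as the WT Th2 array. Il5, which drives eosinophil growth, was 31.2 in WT Th2 and under the floor in WT unpolarized, so it was at least 2.75-fold higher. The KO values were 842 in KO Th2 and 57.4 in KO unpolarized. Il13, which acts on mucus and smooth muscle, was under the floor on both WT arrays, and no fold is given. In the KO it read 555 in KO Th2, against 75.2 in KO unpolarized.

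Il10 and Il24 are cytokines of the IL-10 family that Th2 cells can make. Il10 was 45.2 in WT Th2, against 25.01 in WT unpolarized, both under the median of all values, and 3891 in KO Th2, against 284 in KO unpolarized. Il24 read 183 in WT Th2, against 82.2 in WT unpolarized, 2611 in KO Th2, against 378 in KO unpolarized, and 55.3 in WT Th1 and 405 in KO Th1. Its differences were 1.16 and 2.79 (limma adjusted p 0.628). The Th2 array of each genotype was the highest of that genotype. Csf2, encoding GM-CSF, was nearly equal, with 105 in WT Th2, against 108 in WT unpolarized. Il9, Il3, Il31 and Il21 had no signal above the filter, and Areg is not analysed here.

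Genes of the IL-4 receptor pathway were close to level. Of 17, 14 passed the filter, and the median difference was 0.07. Of the 14, all well measured, 0 were 2-fold higher and 0 lower, beside 0.551% and 0.439% of all well-measured genes. The receptor chain Il4ra had 2863 in WT Th2, against 2349.9 in WT unpolarized, and Stat6 1708 in WT Th2, against 1543 in WT unpolarized. With the mean of all probe sets the WT difference was -0.02 for Il4ra and -0.13 for Stat6, so these signs depended on the probe set. The largest difference in the list belonged to Socs3, an inhibitor of cytokine receptors, with 1746 in WT Th2, against 2859 in WT unpolarized, and with the opposite order in KO, 5478 in KO Th2, against 2958 in KO unpolarized. Of the kinases, Jak1 (-0.17) and Jak3 (0.10) both lay near 0. The common gamma chain Il2rg is not analysed here.

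Among 22 transcription factors linked to Th2 cells, 18 passed the filter and 3 were 2-fold higher (Pparg, Maf, Nfil3), with 0 lower, beside 2.65% and 3.48% of all tested genes. The count was 4 after median centring and after quantile normalization, and 2 with the floor at the 40th percentile. The median difference was 0.17 in WT and 0.42 in KO. Gata3 read 830.4 in WT Th2, against 575 in WT unpolarized, 1962 in KO Th2, against 971 in KO unpolarized, and 475 in WT Th1 and 686 in KO Th1. WT Th2 exceeds the other WT arrays, by 0.53 over unpolarized (KO 1.02; limma adjusted p 0.699). Nfil3, a bZIP factor that regulates cytokine genes in T cells, read 2281 in WT Th2, against 1093 in WT unpolarized, 3736 in KO Th2, against 1983 in KO unpolarized, and 2044 in WT Th1 and 2253 in KO Th1. It was higher in both Th2 arrays, by 1.06 in WT and 0.91 in KO, though WT Th1 was nearly as high as WT Th2.

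Maf, which activates the Il4 promoter, had 92.2 in WT Th2, against 31.2 in WT unpolarized, both near or under the median of all values. In KO it had 5302 in KO Th2, against 3721 in KO unpolarized. WT Th1 had 73.1 and KO Th1 5309, both also above the unpolarized array of their genotype. On its other probe sets the WT pair was under the median of all values and the signs were mixed, and the mean over all probe sets gave a difference of 0.44. Pparg, a nuclear receptor needed for Th2 effector function, read 64.9 in WT Th2, against 18.5 in WT unpolarized, 1272 in KO Th2, against 307 in KO unpolarized, and 24.2 in WT Th1 and 413 in KO Th1, differences of 1.81 and 2.05 (limma adjusted p 0.0822 with the trend, 0.491 without). Irf4 and Rbpj were higher by 0.51 and 0.75 in WT, and by 1.04 and 0.40 in KO. Irf4 read 1268 in WT Th1, above the 1115 in WT Th2, while KO Th1 had 944 and KO Th2 1968. Epas1, a hypoxia factor, differed by 0.60 in WT and 2.48 in KO, and Junb had opposite signs, -0.39 in WT and 0.82 in KO.

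Of 25 surface and effector genes of Th2 cells, 18 passed the filter, 4 of them with both WT values of the pair under the median, and 17 of the 18 were above 0 and 1 below, where 50.6% of all tested genes were above 0. The median difference was 0.41 in WT and 0.84 in KO. The split of 17 against 1 was the same after median centring and after quantile normalization, and was 15 against 0, with 3 at 0, with the floor at the 40th percentile and 15 against 2 with the mean of all probe sets. As deposited, 3 genes were 2-fold higher (Penk, Cd200r1, Ccl22), or 1 with the higher floor, and 0 were lower. That stands beside 2.65% and 3.48% of all tested genes. Cd200r1 read 68.0 in WT Th2 and 74.1 in WT Th1, against 20.8 in WT unpolarized, so it was not particular to Th2. Ccl22 read 48.3 in WT Th2, against 23.1 in WT unpolarized. It passed the filter only through KO Th2, at 65.1, so its place in the count rests on that array. Ecm1, a matrix protein of Th2 cells, read 902 in WT Th2, against 463 in WT unpolarized, 1052 in KO Th2, against 389 in KO unpolarized, and 286 in WT Th1 and 323 in KO Th1. Its differences were 0.96 and 1.43 (limma adjusted p 0.0822 with the trend, 0.491 without).

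Rnf128, the ubiquitin ligase GRAIL, was 309 in WT Th2, against 177 in WT unpolarized, and 1343 in KO Th2, against 609 in KO unpolarized. The receptor for cysteinyl leukotrienes Cysltr1 read 879 in WT Th2, against 668 in WT unpolarized, and 7158 in KO Th2, against 3105 in KO unpolarized. The costimulatory receptor Icos differed by 0.44 in WT and 1.04 in KO. The only member below 0 was the chemokine Ccl1, which was at the floor or just above it in both WT arrays. Il1rl1, which encodes the IL-33 receptor, is not analysed here.

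**Figure D4:**
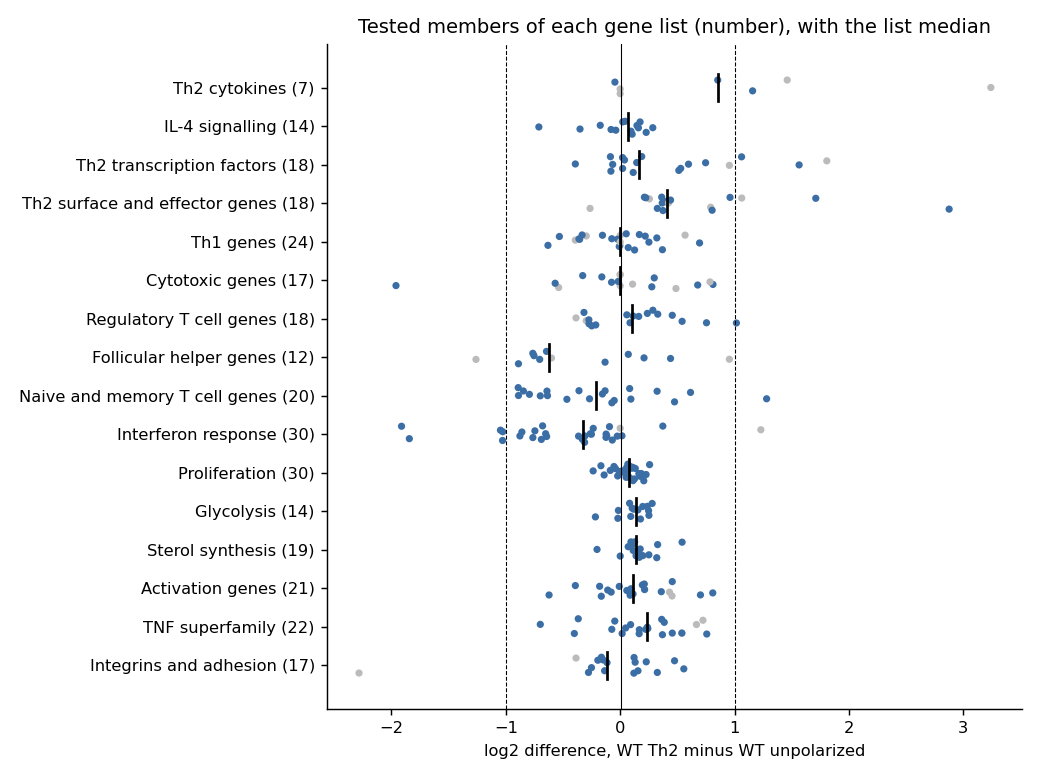
Log2 difference, WT Th2 minus WT unpolarized, for every tested member of 16 gene lists (number of tested genes in parentheses). Blue points are well-measured genes, grey ones dimmer genes, thick bars the list medians, and dashed lines 2-fold. Th2 surface and effector genes lie to the right of 0 but for 1 gene, and most interferon response genes lie to the left.

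Outside these lists, other well-measured genes had larger values in WT Th2. Marcks, a substrate of protein kinase C, read 549 in WT Th2, against 118 in WT unpolarized, 1153 in KO Th2, against 330.1 in KO unpolarized, and 97.2 in WT Th1 and 475 in KO Th1. Its differences were 2.22 and 1.80, and the KO Th1 array was above KO unpolarized. Cyp11a1, the first enzyme of steroid synthesis from cholesterol, read 399.9 in WT Th2, against 136 in WT unpolarized, 3263 in KO Th2, against 246 in KO unpolarized, and 178 in WT Th1 and 173 in KO Th1. KO Th2 is by far the highest, by 3.73, and the WT difference was 1.55. Batf3, a bZIP factor of dendritic cells and T cells, read 652 in WT Th2, against 219.9 in WT unpolarized, with WT Th1 at 519, and 1524 in KO Th2, against 965 in KO unpolarized.

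Genes for surface and enzyme proteins were among the rest. Ltb4r1, the receptor for leukotriene B4, had 348 in WT Th2, against 131 in WT unpolarized, and 3930.3 in KO Th2, against 1513 in KO unpolarized. Mgll, the lipase of monoacylglycerols, had 229 in WT Th2, against 86.8 in WT unpolarized, and 719 in KO Th2, against 283 in KO unpolarized. Both genes were higher in each Th2 array, and their KO unpolarized levels lay above WT Th2. Pros1, the anticoagulant protein S, had 838 in WT Th2, against 286 in WT unpolarized, with a KO difference of 0.72. Cdkn1a, the cell cycle inhibitor p21, had 2421 in WT Th2, against 1138 in WT unpolarized, but only 0.14 in KO, with 6822 in KO Th2 and 6198 in KO unpolarized.

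Further well-measured genes were higher in WT Th2 with a KO difference that was smaller or of the other sign. Ryk, a Wnt receptor, differed by 2.75 in WT and -0.59 in KO, Sema3f by 2.10 and -0.18, Asb2 by 2.08 and 0.47, and Bex1 by 1.52 and 0.63. The other well-measured probe set of Ryk gave 0.70 in WT and 0.33 in KO, so its KO sign depended on the probe set. Asb2, a ubiquitin ligase subunit known in Th2 cells, read 212 in WT Th2, against 50.02 in WT unpolarized, but its KO arrays were 2890.0 in KO Th2, against 2089 in KO unpolarized. For the 11 well-measured higher genes with a second bright probe set, all 19 such probe sets had the same sign and 11 were 2-fold higher. For the 10 lower genes with one, 9 of 13 had the same sign and 3 were 2-fold lower.

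Pairs of related genes were also seen among the higher ones. Ctla2a, an inhibitor of cathepsins first found in activated T cells, had 2251 in WT Th2, against 865 in WT unpolarized, and 15140.4 in KO Th2, against 8749 in KO unpolarized, and its relative Ctla2b had 391 in WT Th2, against 159 in WT unpolarized. The pair is close in sequence, and whether the probes tell them apart was not tested. St3gal1 and St8sia6, enzymes that add sialic acid to glycans, differed by 1.37 and 1.14 in WT and by 0.78 and 1.01 in KO. St8sia6 read 241 in WT Th2, against 109 in WT unpolarized, and 459 in KO Th2, against 228 in KO unpolarized.

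Chd7, a chromatin remodeller, read 1012 in WT Th2, against 501 in WT unpolarized, and 1794 in KO Th2, against 1077 in KO unpolarized. Ell2, an elongation factor, read 273 in WT Th2, against 132 in WT unpolarized, and 1224 in KO Th2, against 616 in KO unpolarized, and Atf3, a stress-induced bZIP factor, 113 in WT Th2, against 43.8 in WT unpolarized, and 596 in KO Th2, against 338 in KO unpolarized. All 3 were higher in the Th2 array of each genotype. Pdcd1lg2, a ligand of the inhibitory receptor PD-1, read 212 in WT Th2, against 103 in WT unpolarized, and 382 in KO Th2, against 226 in KO unpolarized, and H2-DMb2, which loads peptides on MHC class II, 312 in WT Th2, against 145 in WT unpolarized, and 333 in KO Th2, against 178 in KO unpolarized.

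Other genes were higher in wild type with no such value in KO. Cpe, carboxypeptidase E of secretory granules, read 1591 in WT Th2, against 793 in WT unpolarized, but 114 in KO Th2, against 148 in KO unpolarized. Gpld1, a phospholipase that releases GPI-anchored proteins, read 1767 in WT Th2, against 699.6 in WT unpolarized, with 1546 in WT Th1 and a KO difference of 0.53. Fbxw22, Zfp46 and Rhob had KO differences of -0.39, -0.65 and -0.32, opposite to those in WT (1.30, 1.13 and 1.36).

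On the lower side, Gpr132, a receptor for lysolipids, read 48.1 in WT Th2, against 278 in WT unpolarized, 161 in KO Th2, against 319 in KO unpolarized, and 256 in WT Th1 and 235 in KO Th1. The difference was -2.53 in WT and -0.99 in KO. Nfkb2, an NF-κB subunit, was 60.6 in WT Th2, against 329 in WT unpolarized, but another probe set of the gene had the opposite sign and the KO differed by 0.44. AA467197, a gene named only by an accession-like symbol, read 1145 in WT Th2, against 4041 in WT unpolarized, 20126 in KO Th2, against 17462 in KO unpolarized, and 3035 in WT Th1 and 19326 in KO Th1, so that WT Th2 is the lowest of the 6 arrays. Lfng, which modifies Notch receptors, read 275 in WT Th2, against 735 in WT unpolarized, and Slc30a4, a zinc transporter, 1236 in WT Th2, against 2643 in WT unpolarized.

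Klrd1 and Oasl2 had low values in WT Th2, 44.7 and 26.7, against 174 and 96.00 in WT unpolarized, and KO differences of 0.20 and -0.01. Smad7, an inhibitor of TGF-β signalling, had 257 in WT Th2, against 528 in WT unpolarized, and 495 in KO Th2, against 636 in KO unpolarized. A930006K02Rik, the well-measured gene 2-fold lower in both genotypes, read 167 in WT Th2, against 377 in WT unpolarized, and 113 in KO Th2, against 240.3 in KO unpolarized. Its other well-measured probe set was nearly level, with differences of -0.14 in WT and -0.17 in KO. Dntt, the enzyme that adds bases to antigen receptor joints, had 95.6 in WT Th2, against 198 in WT unpolarized, and a KO difference of -0.89.

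Other lower genes did not repeat a 2-fold difference in KO. Ifitm1, a membrane protein that restricts viral entry, had 222 in WT Th2, against 532 in WT unpolarized, and 19887 in KO Th2, against 17940.0 in KO unpolarized. Tanc2, a scaffold protein, had 47.8 in WT Th2, against 128 in WT unpolarized, and 1075 in KO Th2, against 569.6 in KO unpolarized, so its order was opposite in KO. Igfbp7, a secreted binding protein, read 428 in WT Th2, against 885 in WT unpolarized, with a KO difference of 0.12, and Rom1, known from photoreceptors, 68.8 in WT Th2, against 204 in WT unpolarized, with -0.61.

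Genes that type I and type II interferons induce lay mostly below 0 in the wild type pair. Of 34 on the list, 30 passed the filter, and 5 were 2-fold or more lower (Ifit3, Oasl2, Oas2, Oas1a, Rtp4) against 1 higher (Cxcl10, with 26.6 in WT Th2, against 4.51 in WT unpolarized), beside 3.48% lower and 2.65% higher of all tested genes. Of the 30, 26 lay below 0 and 3 above, where 49.1% of all tested genes lay below 0. The list median was -0.32. After median centring 21 lay below 0, 2 were 2-fold lower and the median was -0.20, and after quantile normalization 27, 4 and -0.33. In the Ezh2 KO pair 20 of the 30 lay above 0, where 47.8% of all tested genes did. The KO median of the list was 0.14, and 0 were 2-fold lower. The difference between genotypes was not tested, and limma found 0 members at an unadjusted p under 0.05 over both genotypes. The labels list an antibody to IFN-γ for both cultures of the pair and none for Th1.

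Ifit3, an antiviral protein of the IFIT family, read 77.8 in WT Th2, against 293 in WT unpolarized, 695 in KO Th2, against 985 in KO unpolarized, and 329 in WT Th1 and 1062 in KO Th1. The WT Th2 array is the lowest of the 6, with a log2 difference of -1.91 from WT unpolarized. Rtp4, a chaperone of receptors induced by interferon, read 1164 in WT Th2, against 2373 in WT unpolarized, 7104 in KO Th2, against 8557 in KO unpolarized, and 5015 in WT Th1 and 8457 in KO Th1. Oas1a, a sensor of double-stranded RNA, read 369.9 in WT Th2, against 755 in WT unpolarized, with 1359 in WT Th1. For these 3 genes the order in wild type was Th2 lowest, then unpolarized, then Th1. Ms4a4c, Ddx60, Cmpk2 and Parp12 were not on the list and were picked after their values were seen. Ms4a4c read 681 in WT Th2, against 1614 in WT unpolarized, and the others differed by -1.04, -1.01 and -1.0044. The summed intensity of the list was 48090 in WT Th2, against 57760 in WT unpolarized, and 138700 in KO Th2, against 123000 in KO unpolarized.

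**Figure D5:**
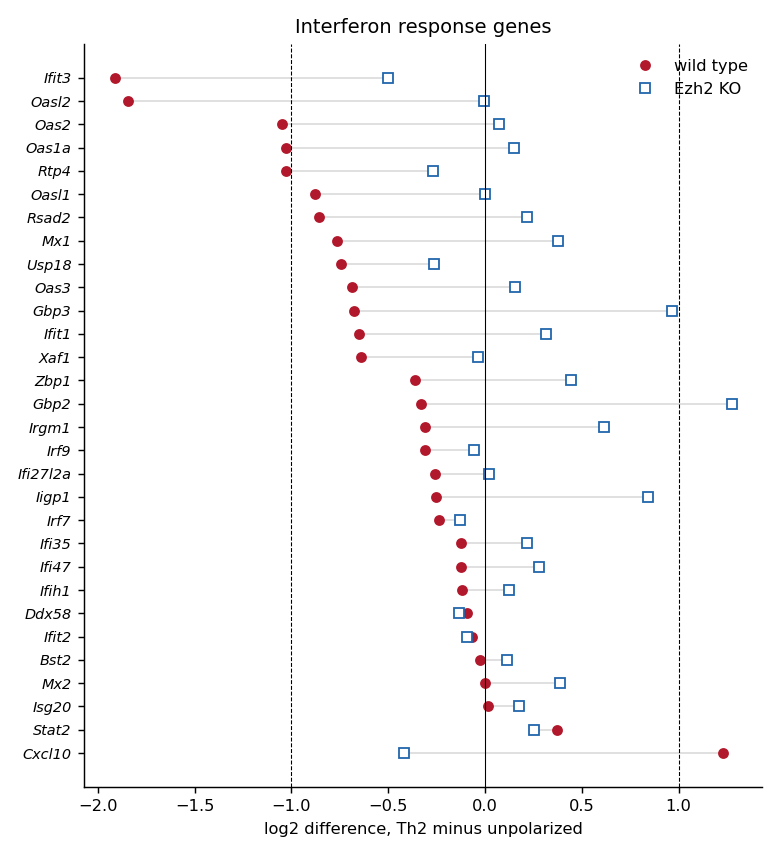
Log2 difference of Th2 minus unpolarized for the 30 tested interferon response genes, red circles for wild type and open blue squares for Ezh2 KO, sorted by the wild type value. Dashed lines mark 2-fold. In wild type 26 genes lie below 0, and in Ezh2 KO 20 lie above 0.

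Th1 and cytotoxic genes were near level in the wild type pair. Of 27 Th1 genes 24 passed the filter, 6 of them with both WT values of the pair under the median. Of the 24, 0 were 2-fold higher or lower, beside 2.65% and 3.48% of all tested genes. Tbx21 read 80.8 in WT Th2, against 89.97 in WT unpolarized, whereas WT Th1 had 530.4. Ifng was under the floor in both arrays of the pair, with 608 in KO Th2 and 266 in KO unpolarized. Il18r1, a receptor chain for IL-18, had 1311 in WT Th2, against 2032 in WT unpolarized, and 4204 in KO Th2, against 5817 in KO unpolarized, with the same direction in both. The cytotoxic list had 17 of 18 genes measured, 8 of them with both WT values under the median. In that list 1 gene was 2-fold lower, Klrd1, beside 3.48% of all tested genes. Gzmc, a granzyme, read 1316 in WT Th2, against 823 in WT unpolarized, and 4182 in KO Th2, against 2068 in KO unpolarized.

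Genes of naive, memory and follicular helper T cells lay mostly below 0 in the wild type pair. Of 20 tested naive and memory genes, 14 were below 0 in each genotype, where 49.1% of all tested genes in WT and 51.9% in KO were, with medians of -0.21 in WT and -0.32 in KO, and 1 (Il7r) was 2-fold higher. The number below 0 in WT was 12 after median centring, with a median of -0.09, and 15 after quantile normalization. Klf3, a Krüppel-like factor of lymphocytes, read 680.0 in WT Th2, against 1262 in WT unpolarized, and 1066 in KO Th2, against 2052 in KO unpolarized. The costimulatory receptor Cd27 read 684 in WT Th2, against 1110.4 in WT unpolarized, and 293 in KO Th2, against 474 in KO unpolarized, and Btla, an inhibitory receptor, 1969 in WT Th2, against 3320.1 in WT unpolarized, and 1219 in KO Th2, against 2410.4 in KO unpolarized (limma adjusted p 0.0599 with the trend, 0.507 without). These 3 genes were lower in each Th2 array.

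Il6ra, a receptor for IL-6, was 306 in WT Th2, against 568 in WT unpolarized, and 19.9 in KO Th2, against 165 in KO unpolarized. Of 12 follicular helper genes 8 were below 0 in WT, where 49.1% of all tested genes were. The list median was -0.62 in WT and 0.13 in KO. Among the 12, 1 gene (Tox2) was 2-fold lower in WT, beside 3.48% of all tested genes. Tox2 had 65.8 in WT Th2, against 158 in WT unpolarized, but was not lower in KO (453 in KO Th2, against 134 in KO unpolarized). With the mean of all probe sets the WT median of the list was -0.34 and 0 genes were 2-fold lower. Among 18 regulatory T cell genes, 1 was 2-fold higher, beside 2.65% of all tested genes. This was Ebi3, with 1318 in WT Th2, against 652 in WT unpolarized. Foxp3 read 56.4 in WT Th2, against 69.3 in WT unpolarized, near the median of all values. The Th17 list had 0 of 7 tested genes past 2-fold, beside 2.65% higher and 3.48% lower of all tested genes.

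Genes of growth were close to level and small in their differences. Of 30 proliferation genes, all well measured, 0 were past 2-fold, beside 0.551% higher and 0.439% lower of all well-measured genes. Their median was 0.07 in WT and -0.06 in KO, and Mki67 read 17355 in WT Th2, against 14521 in WT unpolarized. Of 14 glycolysis genes 11 were above 0 in WT (median 0.14, or 0.04 after quantile normalization) and 3 in KO (median -0.08). Among all well-measured genes, 52.9% were above 0 in WT and 45.2% in KO. Of 19 sterol synthesis genes 18 were above 0 in WT (median 0.14), where 50.6% of all tested genes were. In KO 16 of them were below 0 (median -0.22), where 54.8% of all well-measured genes were. The WT count was 17 after quantile normalization and 14, with a median of 0.07, with the mean of all probe sets. Dhcr7, a late enzyme of cholesterol synthesis, read 1496 in WT Th2, against 1028 in WT unpolarized, and 361 in KO Th2, against 643 in KO unpolarized. With 1 array per culture, a shift of this size cannot be told apart from a difference between 2 cultures or arrays.

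Receptor, adhesion and activation lists had 0 or 1 gene each past 2-fold. That stands beside 2.65% higher and 3.48% lower of all tested genes, and 0.551% and 0.439% of the well-measured ones. Counts this small are not read as a trait of any list. Of 20 tested interleukin receptors 1 was 2-fold higher (Il7r), of 9 inhibitory receptors 1 (Cd200r1, which has a low signal in WT), of 15 apoptosis genes 1 (Cdkn1a), and of 17 integrin and adhesion genes 1 was lower (Itga2, 4.90 in WT Th2, against 55.2 in WT unpolarized, a lower bound in size). The 12 chemokine receptors, 22 TNF superfamily genes, 21 activation genes and 11 PRC2 subunits had 0 past 2-fold. Of the TNF superfamily 17 were above 0 and 5 below, where 50.6% of all tested genes were above 0 (median 0.23 in WT, 0.01 in KO). Tnfsf4, which encodes the ligand of OX40, read 208 in WT Th2, against 123 in WT unpolarized, and 529 in KO Th2, against 582 in KO unpolarized. Ccr2, a receptor for monocyte chemoattractants, read 189 in WT Th2, against 108 in WT unpolarized, and 3889 in KO Th2, against 1806 in KO unpolarized, and the adhesion receptor Cd44 3191 in WT Th2, against 2295 in WT unpolarized, and 7794 in KO Th2, against 6582 in KO unpolarized. Among activation genes, Cd69 was 1596 in WT Th2, against 2456 in WT unpolarized, and Ier3 919 in WT Th2, against 525 in WT unpolarized, with KO differences of 0.26 and 0.25.

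Markers of other cell types were read in the same way, since in these bulk cultures fewer cells of a type and less RNA per cell cannot be told apart. Of 17 myeloid and dendritic cell markers 10 passed the filter, and 3 were 2-fold higher: Adgre1 (229.6 in WT Th2, against 82.5 in WT unpolarized), Fcgr1 (91.3 in WT Th2, against 18.98 in WT unpolarized) and H2-Aa (135 in WT Th2, against 37.4 in WT unpolarized). That compares with 2.65% higher among all tested genes. Of the other 7, 3 lay below 0, among them Arg1 (14.05 in WT Th2, against 27.98 in WT unpolarized, both under the median of all values). The summed intensity of the 10 tested markers was 4730.0 in WT Th2, against 4177 in WT unpolarized. With the mean of all probe sets, 1 marker was 2-fold higher. The defining markers Lyz2, Itgam, Itgax, Cd14, S100a8 and S100a9 had no signal above the filter. H2-Aa's other probe sets were dim and mixed, and Fcgr1's other probe set had the opposite sign (-0.46). Of 10 mast cell and basophil markers 3 passed the filter. Cpa3, a mast cell protease, was 25.5 in WT Th2 and under the floor in WT unpolarized, and 1061 in KO Th2, against 92.7 in KO unpolarized, while Fcer1a, Ms4a2 and Hdc were under the filter on all arrays. The other 2 tested markers lay below 0 in WT, Kit (100.3 in WT Th2, against 123 in WT unpolarized) and Gata2 (78.8 in WT Th2, against 92.9 in WT unpolarized), and the 3 summed to 205 in WT Th2, against 220.1 in WT unpolarized. The B cell markers Ighm (8368 in WT Th2, against 8363 in WT unpolarized) and Ms4a1 (63.5 in WT Th2, against 83.7 in WT unpolarized) did not differ by 2-fold. Of the CD8 markers, Cd8b1 read 277 in WT Th2, against 300.2 in WT unpolarized, and Cd8a read 131 in WT Th2, against 89.1 in WT unpolarized on its brightest probe set, while 2 of its other 4 probe sets were lower in WT Th2. Among the other marker lists, 2 of 8 NK and NKT genes passed the filter (sum of those that passed 80.5 in WT Th2, 82.3 in WT unpolarized), 5 of 7 innate lymphoid type 2 genes (665 in WT Th2, 822 in WT unpolarized), 2 of 5 gamma delta T cell genes (116 in WT Th2, 127 in WT unpolarized) and 1 of 8 erythroid genes (Gata1), with 0 past 2-fold. The part of such cells in the results was not tested.

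The 12 highest and 12 lowest differences over all tested genes were nearly all dim genes, given as values only. Besides Il4 and Cd24a the highest were Aipl1 (3.79), Sst (3.24), Ntng2 (3.22), Prdm9 (3.04), Agrn (3.01), Defa39 (2.98), Ltf (2.95), Lncppara (2.93), Drd4 (2.90) and Has1 (2.90). The WT Th2 intensities of these 10 ran from 84.4 to 156. Of them Drd4 and Ltf were also 2-fold or more higher in KO, where 15.7% of all dimmer genes were. Drd4, a dopamine receptor, had 84.5 in WT Th2, against 7.74 in WT unpolarized, and 85.9 in KO Th2, against 10.8 in KO unpolarized. The other probe set of Drd4 was under the floor on both WT arrays, and its KO difference was -0.49. Ltf, the iron-binding lactoferrin, had 87.8 in WT Th2, against 8.63 in WT unpolarized, and 28.8 in KO Th2, against 3.40 in KO unpolarized. The lowest were Inhbb (-3.47), Sct (-3.15), Wwc1 (-3.11), Gh (-3.06), Ndn (-2.99), Slc34a2 (-2.92), Hyal2 (-2.83), Glb1l (-2.81), Emx2os (-2.80), Cplx2 (-2.79), Ybx2 (-2.78) and Nectin1 (-2.77). Glb1l, Hyal2 and Emx2os were also 2-fold or more lower in KO, with differences of -2.03, -1.64 and -1.37, where 8.25% of all dimmer genes were. The other probe set of Glb1l went the opposite way in both genotypes, with 0.91 in WT and 0.61 in KO. For genes whose lower array was under the floor these differences are lower bounds in size.

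At the 2-fold limit itself, the log2 differences were as follows. Cldn19 (1.0010) and Ubtd1 (1.0039) lay just inside on the higher side, and Plxnb1 (0.99) and Zfp703 (0.98) just outside. Ppp1r14c (-1.0002) and Serpinf2 (-1.0008) lay just inside on the lower side, and Nkx2-4 (-0.9957) and Ace (-0.99) just outside.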

How the data were processed

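RNA from each culture was labelled by 3' in vitro transcription and read on 1 Affymetrix array, per the labels' protocols. The authors' deposited values are linear intensities, 1 per probe set and array, made with Affymetrix Expression Console per the submitters' processing notes. How probes were summarized is not stated there. After 2% of values were trimmed at either end, all 6 arrays had a mean of 500.003, so the deposited values had been scaled to a common target. Their distributions differed, so no quantile normalization had been applied. Intensity over background, not read depth, limits the precision of dim genes.

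Of 45101 probe sets, the platform annotation gave 1 symbol to 34945, several to 932 and none to 9160, beside 64 controls, and 34741 of the named ones were found in the RefSeq table. Values were raised to the 20th percentile of all values (11.3) and log2 transformed. Each gene was represented by its brightest probe set on average, and was kept if any array reached 64.4, the median of all values. Within the wild type pair, called means 2-fold or more, with no test. Over both genotypes, limma 3.58.1 in R 4.3.3 fitted culture and genotype to the 6 arrays (2 residual degrees of freedom, prior degrees of freedom 1.66), with Benjamini-Hochberg adjustment and a threshold of 0.05. The fit was tested on simulated data.

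Named genes were a set of core genes, the 12 highest and 12 lowest wild type differences, up to 4 members of each of 31 lists, the 5 largest gaps between genotypes in each direction, 2 genes on each side of the 2-fold limit, and, by a rule added after the values were seen, the well-measured genes past 2-fold. Predicted genes, clone names, accession-like names and receptor segments were left out, except AA467197 and A930006K02Rik, which were chosen after their values were seen. A rule for genes past the limma threshold named none. The genes, lists and tests were chosen with earlier results of these data known. Alternatives covered scaling, floor, filter, probe set, fold limit, variance trend, moderation, the Th1 arrays and the genotype term.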

Additional observations from a re-analysis of the deposited data

Results flagged for a closer look

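Among the genes named, 15 differed by 2-fold or more in opposite directions in the 2 genotypes. Over all tested genes, 20 of the 307 higher in WT were 2-fold lower in KO, where 2.21% of all genes were. Of the 403 lower in WT, 71 were 2-fold higher in KO, where 4.29% of all genes were, and 38 were 2-fold lower there. Among the dimmer genes alone these reversals numbered 20 and 70, where 8.25% of all dimmer genes were 2-fold lower in KO and 15.7% higher. The difference between genotypes was not tested, since each group has 1 array. Only Dusp14, a dual-specificity phosphatase, was well measured, with -1.75 in WT and 1.02 in KO. Its intensities were 29.2 in WT Th2, against 98.1 in WT unpolarized, and 606 in KO Th2, against 298 in KO unpolarized. Tox2, on the follicular helper list, differed by -1.26 in WT and 1.76 in KO.

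The other 13 were dim. WT was above KO for Aif1l (2.66 in WT, -2.75 in KO), Usp13 (2.14, -2.66), Omp (2.55, -2.17), Spata7 (1.60, -2.87) and Diras1 (1.56, -2.91). KO was above WT for Sct (-3.15 in WT, 2.63 in KO), Casp14 (-2.46, 2.89), Wfdc1 (-2.60, 2.71), Lca5l (-2.64, 2.57), Wnt2b (-2.44, 2.51), Slc34a2 (-2.92, 1.52), Ybx2 (-2.78, 1.97) and Nectin1 (-2.77, 1.57). The first 5 and the next 5, Sct to Wnt2b, were named for this gap, so their signs describe the choice.

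Probe sets with no single gene symbol entered no comparison. Of 2389 such probe sets above the 60th percentile, 8 were 2-fold or more higher in WT Th2 and 12 were lower than in WT unpolarized. That stands beside 0.551% and 0.439% of the well-measured genes. In the Ezh2 KO pair 7 of the 8 and 9 of the 12 had the same sign, where 45.2% of well-measured genes were above 0 and 54.8% below.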

How the results depend on the processing

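Counts of genes past 2-fold in the wild type pair (307 higher, 403 lower) and in both genotypes (78 higher, 38 lower) depended on how dim genes were treated. Keeping genes whose mean over 6 arrays passed the 60th percentile left 49 higher and 39 lower, with 10 and 1 in both genotypes. The same filter on the mean of the wild type pair, added after seeing the data, left 40 and 31, with 10 and 1. A floor at the 40th percentile gave 156 and 219 (24 and 8), and no filter 1136 and 1354 (209 and 163). The probe set with the largest spread gave 643 lower and 80 lower in both. A limit of 1.5-fold gave 668 and 909 (238 and 162), and of 3-fold 137 and 174 (22 and 9). The cause was not tested beyond the number of genes kept, which was 8893, 8867 and 18193 under the 2 mean filters and no filter, against 11572. Median centring, quantile normalization, no floor and the mean of all probe sets kept each of these counts within 1.5 times. Over both genotypes limma called 5 genes with a variance trend and 0 otherwise, and the smallest adjusted p ran from 0.018 to 0.728 over the alternatives. Core genes past 2-fold kept their sign under median centring, quantile normalization, no floor and the mean of all probe sets. They were not checked singly under the other alternatives. With the floor at the 40th percentile, 3 of 7 Th2 cytokines were above 0 and 2 were 2-fold higher, against 4 and 3 in the main setting. With the mean of all probe sets the wild type difference was -0.02 for Il4ra and -0.13 for Stat6, against 0.29 and 0.15 with the brightest probe set, so the sign of these small differences depended on the probe set, and 0.44 for Maf, with median centring 0.26 for Ezh2, and with no floor 4.26 for Il5 and -0.59 for Ifng. No paired analysis was possible because each group has 1 array and the labels give no replicate numbers; genotype served as the block.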
